A study of Mus musculus with 4 samples.

Results

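The genes described here are 10 that make or sense prostaglandins and leukotrienes, the lipid mediators cut from arachidonic acid. They are Ptgs1, Ptgs2, Ptges and Hpgds on the prostaglandin branch, Ptger2 and Ptger4 among its receptors, and Alox5, Alox5ap, Ltc4s and Lta4h on the leukotriene branch. They were matched by gene symbol, and all 10 were among the 18605 genes listed in every one of the 4 deposited count tables. The study measured subcutaneous LLC tumors (Lewis lung carcinoma, a mouse lung cancer cell line) in C57/BL6N mice by single-cell RNA sequencing, with a kit that reads the 3′ end of transcripts and counts molecules by their identifiers (UMIs). The mice were 6 to 8 weeks old, and all 4 libraries were taken 72 h after treatment. In the RT group, labelled Radiation, tumors that averaged 100 mm3 received 24 Gy of hypofractionated radiotherapy in 3 fractions of 8 Gy on days 7 to 9 after tumor cell injection, and libraries RT1, RT2 and RT3 held 1 tumor each. The NT group, labelled Mock, was 1 library that pooled 3 tumors.

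Prostaglandin synthesis begins with the cyclooxygenases, which turn arachidonic acid into a shared intermediate from which terminal synthases form prostaglandin E2, prostaglandin D2 and other products. Prostaglandin E2 acts on tumor and immune cells through 4 receptors, of which EP2 and EP4 raise cyclic AMP and are best known for damping the activation of myeloid cells and lymphocytes. Leukotriene synthesis begins with 5-lipoxygenase and its partner protein at the nuclear envelope and then divides into leukotriene B4, a chemoattractant for neutrophils, and the cysteinyl leukotrienes.

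The tables held 10141, 15346, 14994 and 15324 cell barcodes in NT, RT1, RT2 and RT3, and 69667759, 78585759, 108699844 and 85660188 UMIs respectively. After cells with under 200 genes or over 20% mitochondrial UMIs were left out, 55058 of 55805 barcodes remained, with medians per cell of 5709 UMIs for NT, 3864 for RT1, 5200 for RT2 and 4158 for RT3. The RT2 table stood apart, since it listed 18605 genes where the others listed 32285, and its highest mitochondrial share in any barcode was 11.95% against 91.5 to 97.0% elsewhere. Pairs of libraries shared between 182 and 277 barcode sequences. Clusters of cells were named by marker genes, and the 10 genes themselves were kept out of the clustering. Listed from NT to RT3, this gave 7170, 7933, 7430 and 9167 tumor cells, 685, 2538, 2513 and 1478 macrophages, and 537, 1807, 1971 and 1787 monocytes. Dendritic cells numbered 79, 129, 206 and 133, and lymphocytes numbered 345, 321, 545 and 301. Neutrophils (21, 183, 252 and 123), fibroblasts (18, 85, 117 and 185) and endothelial cells (34, 109, 150 and 35) were few in NT, so values of NT in these types rest on few cells. The 7 neutrophil markers together reached 5838 CPM (UMIs per 1000000 UMIs of the cell type in that library) in the 21 NT neutrophils against 22256 to 34180 CPM in the RT neutrophils, with S100a8 the most abundant. The 8 macrophage markers together stood at 9087 CPM in NT macrophages and at 14300, 16197 and 13192 CPM in those of the RT libraries. Since NT was 1 library, no test between NT and RT was possible, and treatment cannot be told apart from library or pooling. Every level below is in CPM, values of the RT group are listed in the order RT1, RT2, RT3, and ratios are the log2 of RT over NT with the mean and SD over the 3 RT libraries. A gene was called when it differed at least 2-fold from NT in 1 direction in all 3 RT libraries, among genes with a mean of at least 10 UMIs per library in the cell type. All intervals are 95% and cover counting error only.

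Tumor cells held 89.8% of all UMIs in NT and 75.7, 73.3 and 84.1% in RT, shares against which the 10 genes are read. Ptgs1 and Ptges had more of their UMIs in tumor cells than that, at 89.6 to 95.1% for Ptgs1 and 91.3 to 96.6% for Ptges over the 4 libraries. Lta4h, at 75.2 to 90.0%, stayed close to the share of all UMIs. Ptgs2 had 72.8 to 82.0% of its UMIs in tumor cells and its highest levels in monocytes and neutrophils. Hpgds had 86.0 to 91.5% of its UMIs in macrophages. Ptger4, Alox5 and Alox5ap were nearly absent from tumor cells and high in macrophages, monocytes or dendritic cells.

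**Figure D1:**
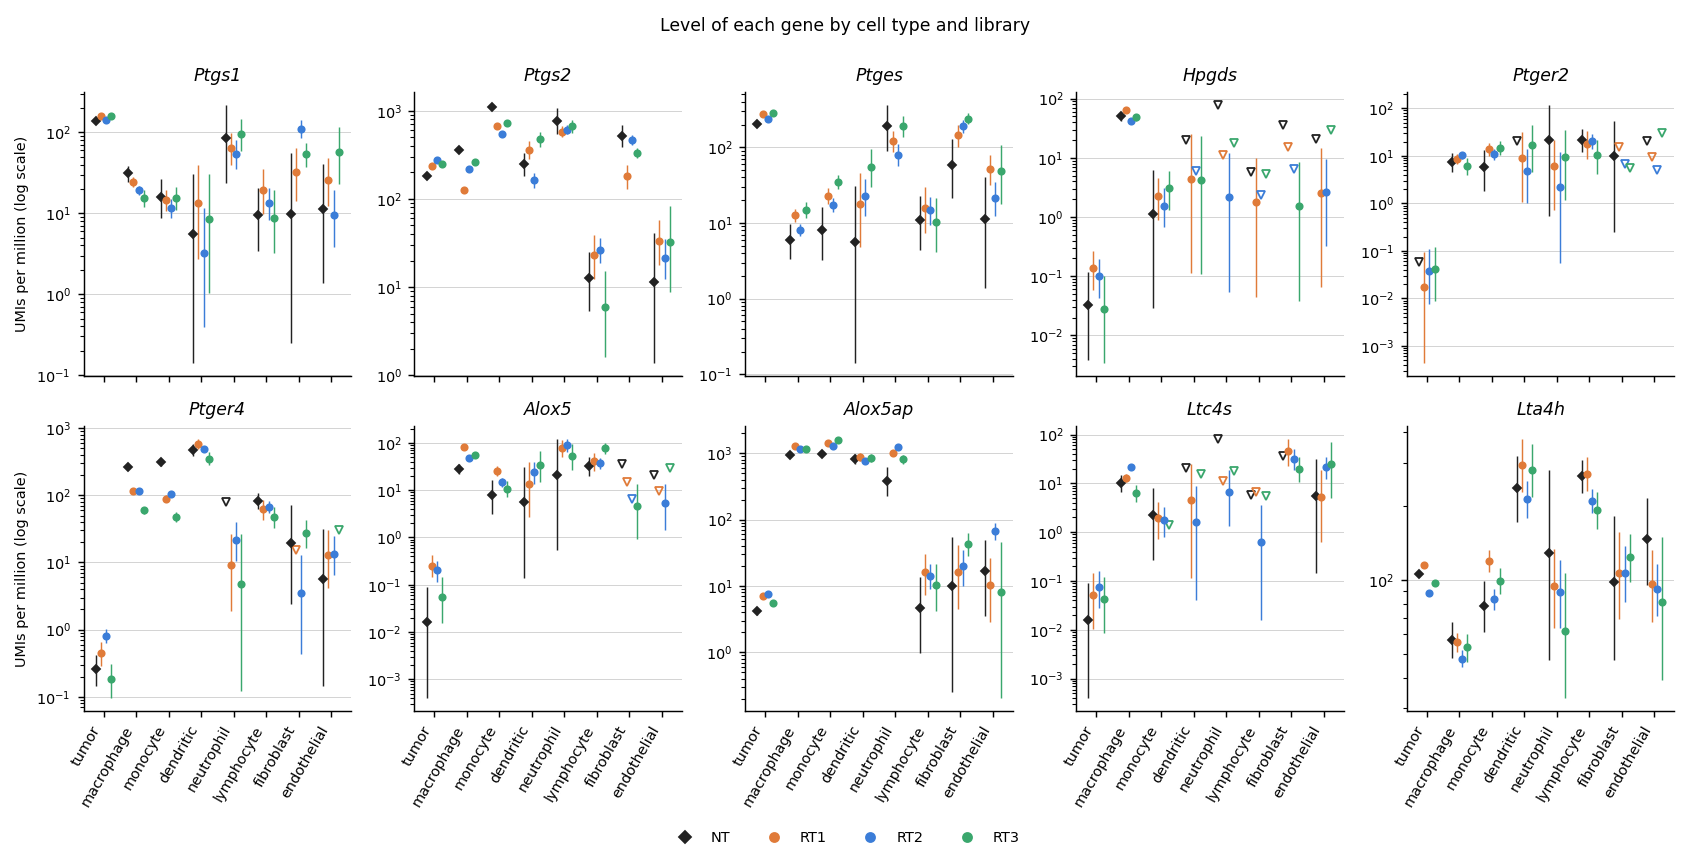
Level of each of the 10 genes in 8 cell types, in CPM on a log axis; black diamonds are NT, coloured circles are RT1 to RT3, lines are 95% Poisson intervals and open triangles mark the level of 3 UMIs where a library had 0 UMIs. Ptger4 in macrophages and monocytes shows the NT diamond (266 and 308 CPM) above all 3 RT circles, and Alox5ap in neutrophils shows it below them.

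Ptger4, which encodes the prostaglandin E2 receptor EP4, was lower after radiotherapy in macrophages and monocytes while in dendritic cells NT lay inside the RT range. In macrophages it reached 266 CPM in NT (interval 246 to 287, 674 UMIs) against 117, 118 and 60.04 CPM in RT. In monocytes it reached 308 CPM in NT (interval 273 to 347, 271 UMIs) against 89.2, 103 and 47.6 CPM. NT lay above all 3 RT libraries in both types with no overlap of intervals, and RT3 was the lowest library in each. The mean log2 ratio was -1.50 ± 0.56 (SD, n = 3) in macrophages and -2.02 ± 0.59 in monocytes, and without RT2 it was -1.67 and -2.24. Ptger4 was called lower in both, where 2.99% of the genes compared in macrophages and 0.942% of those compared in monocytes were called lower.

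In dendritic cells, the type with the highest Ptger4 level, the gene stood at 475 CPM in NT and at 579, 489 and 353 CPM in RT, so the NT value lay inside the RT range (mean log2 ratio -0.03 ± 0.36). The dendritic level moved with the drawing of clusters, from a mean log2 CPM of 8.87 to 9.77 at a coarser resolution (0.4) and 8.12 at a finer one (1.2). In lymphocytes Ptger4 stood at 83.0 CPM in NT and 62.0, 67.6 and 46.9 CPM in the RT libraries, lower in each but by under 2-fold (-0.51 ± 0.27) and with overlapping intervals. In the order of levels, dendritic cells were apart from macrophages, while macrophages, monocytes and lymphocytes overlapped. Tumor cells held 0.182 to 0.815 CPM, and the NT neutrophils held 0 UMIs.

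The share of cells with at least 1 Ptger4 UMI gave the same order of libraries. With every cell thinned to 1000 UMIs, 20.2% of NT macrophages had one against 9.87, 10.2 and 5.24% in RT. The monocyte shares were 21.8% in NT and 8.14, 8.82 and 4.24% in the RT libraries. Thinning left out 92, 353, 261 and 235 macrophages and 178, 449, 233 and 578 monocytes as too shallow. Before thinning, the shares were 39.7, 22.9, 30.7 and 12.04% in macrophages and 27.6, 11.2, 17.8 and 5.54% in monocytes. Tumor cells, in which the gene was nearly absent, had thinned shares of 0.0284 to 0.0895% at median depths of 6046 to 8634 UMIs.

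The promoter of Ptger4 is shown with that of Ptgs2 because these 2 of the 10 genes had NT intervals above those of every RT library in both macrophages and monocytes, a choice made after their values were seen. Each is the 250 bases before the RefSeq start site in build GRCm38.p6, read on the strand of the gene, with capitals for the C/EBP palindrome TTGCGCAA. The Ptgs2 stretch lies at chr1:150099781-150100030 on the plus strand and the Ptger4 stretch at chr15:5244188-5244437 on the minus strand.
Ptgs2: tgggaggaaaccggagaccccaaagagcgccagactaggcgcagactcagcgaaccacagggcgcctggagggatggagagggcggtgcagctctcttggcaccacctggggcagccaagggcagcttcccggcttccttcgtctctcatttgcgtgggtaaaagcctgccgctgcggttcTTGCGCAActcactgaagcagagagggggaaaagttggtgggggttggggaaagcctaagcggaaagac
Ptger4: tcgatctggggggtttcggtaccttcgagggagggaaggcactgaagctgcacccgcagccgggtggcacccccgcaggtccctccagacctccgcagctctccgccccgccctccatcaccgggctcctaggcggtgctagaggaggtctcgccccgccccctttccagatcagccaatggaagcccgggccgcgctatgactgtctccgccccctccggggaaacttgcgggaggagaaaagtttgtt
The palindrome stood 69 to 62 bases before the Ptgs2 start and was present in 0.183% of the 32851 RefSeq promoter windows of 300 bases searched, each with 50 bases after the start. After the printed bases, the Ptgs2 window also held CACGTG at 17 to 22 bases past the start (7.15% of windows) and TGACG on the other strand at 14 to 18 (20.8%), which overlap. TATAAA (13.6% of windows) and the NF-kappaB site (1.199%) matched neither promoter, and none of these 5 motifs, searched on both strands, matched the Ptger4 window. These matches are of letters only, and the deposited counts do not measure promoter use.

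Heat shock transcripts were lower in RT in several cell types, myeloid cells among them. Hspa1a, Hspa1b, Dnajb1 and Hsph1, which rise with heat and other stress of cells, together reached 17371 CPM in NT macrophages against 6078, 8561 and 7145 CPM in RT. In monocytes the sums were 15035 CPM in NT and 3707, 5103 and 2915 CPM in the RT libraries. In tumor cells they were 1801 CPM in NT and 1144, 1888 and 1667 CPM, so that NT lay inside the RT range there. In dendritic cells, where NT lay inside the RT range of Ptger4, the sums were 24794 CPM in NT and 8338 to 11797 CPM in RT. In lymphocytes they were 9925 CPM in NT and 4107, 5530.1 and 4696 CPM, with all 4 genes lower in every RT library, and in fibroblasts 6798 CPM in NT and 4714, 2731 and 4128 CPM, with 3 of 4 lower. Endothelial cells went the other way, at 8600 CPM in NT and 9166.5, 11626 and 8791 CPM, with 3 of 4 genes higher in every RT library, and neutrophils had 1588 CPM in NT and 1166, 1363 and 1571 CPM. The part of these transcripts in the Ptger4 and Ptgs2 values outside macrophages and monocytes was not tested. The 7 immediate early genes measured were lower in every RT library in monocytes, with sums of 25495 CPM in NT and 10861 to 20515 CPM in RT. Levels were therefore also taken over the macrophages and monocytes whose heat shock share was no higher than in the median RT cell of their type, a choice made after seeing the data. Among those cells Ptger4 stood at 202 CPM in NT macrophages (159 cells) against 99.5, 83.6 and 54.5 CPM in RT. In the matching monocytes it stood at 136 CPM in NT (100 cells, 22 UMIs) against 59.2, 71.4 and 33.4 CPM. The macrophage call remained (mean log2 ratio -1.39), and the monocyte call was lost because RT2 fell short of 2-fold (log2 ratio -0.93).

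Myeloid cells were clustered a second time and these clusters were named anew, so they are not parts of the cell types above. Ptger4 was lower in every RT library in all 9 second-level clusters named macrophage or monocyte, and by at least 2-fold in 6 of them. Of these 9, the difference was largest in the monocytes led by the interferon-induced genes Slfn4, Ifit1bl1 and Isg20 (1187 cells), with 513 CPM in NT and 107, 115 and 51.2 CPM in RT. It was least in the macrophages led by Cbr2, Lyve1 and Cnrip1, with 156 CPM in NT and 103, 92.7 and 55.6 CPM. The largest macrophage cluster, led by Lyve1, Ccl8 and Bmp2 (2865 cells), stood between them at 340.2 CPM in NT and 139.7, 146 and 89.1 CPM. The macrophage cluster led by Cma1, Mcpt4 and Cd52 (604 cells) had mast cell proteases as its leading genes along with all 8 macrophage markers, and its Ptger4 levels were 166 CPM in NT and 73.1, 114 and 45.8 CPM. Recomputed over these clusters, the NT to RT difference was 0.08 when only the shares of the clusters changed and -1.59 when only the levels inside them changed. Of the second-level clusters named dendritic, the one led by Ccr7, Cacnb3 and Ccl22 (99 cells) had the higher Ptger4 levels, at 947 CPM in NT and 1397, 863 and 554 CPM. The larger one, led by Cd209a, Sept3 and Klrb1b (654 cells), had 301 CPM in NT and 244, 283 and 203 CPM, lower in every RT library with a mean log2 ratio of -0.32 ± 0.24. This cluster alone held 93 NT cells, against 79 in the dendritic cell type.

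**Figure D2:**
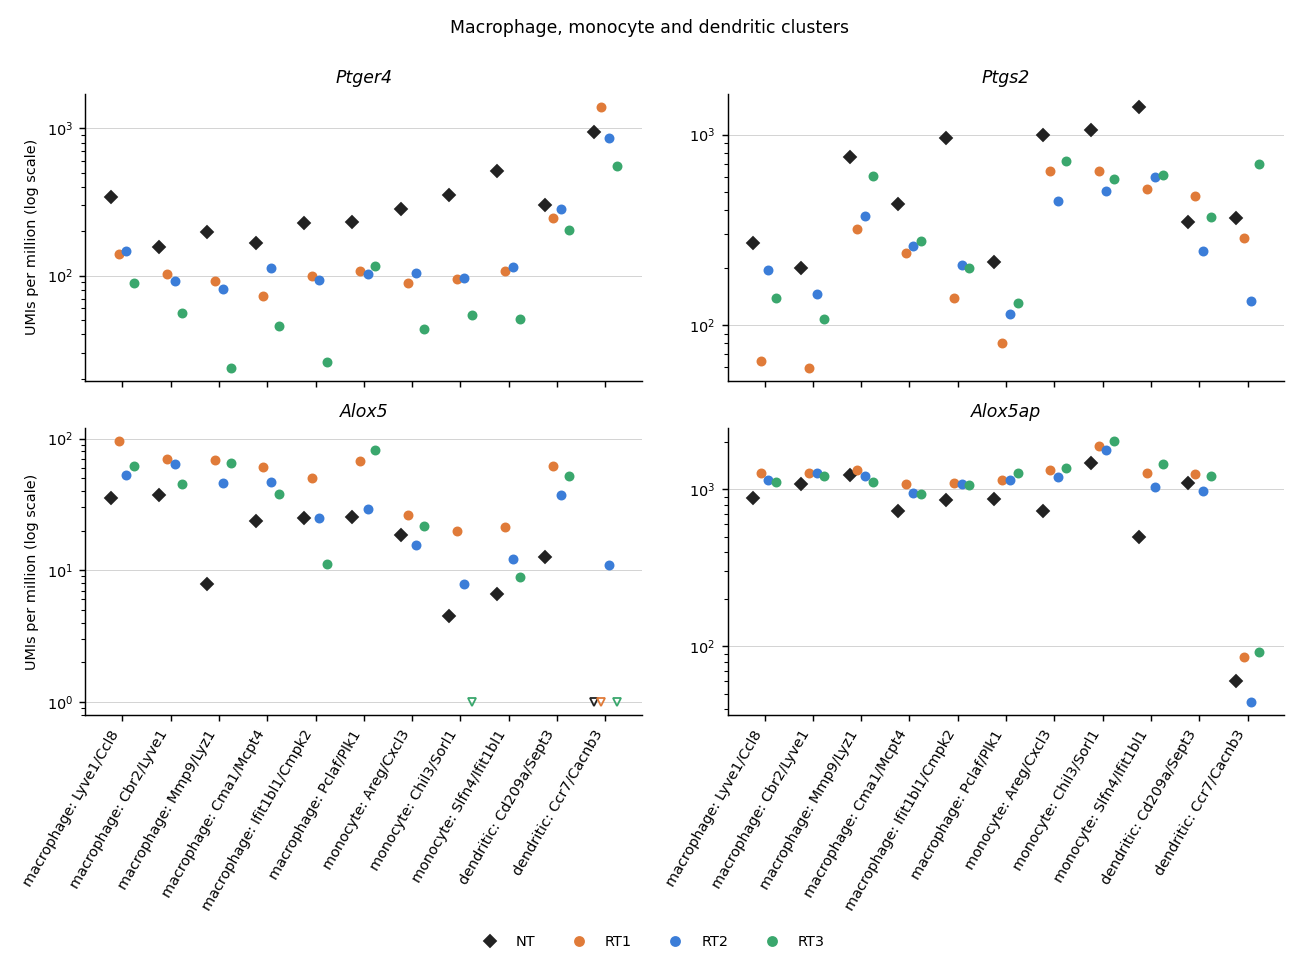
Levels of Ptger4, Ptgs2, Alox5 and Alox5ap in 6 macrophage, 3 monocyte and 2 dendritic clusters, in CPM on a log axis; black diamonds are NT, coloured circles are RT1 to RT3 and open triangles mark 0 UMIs. For Ptger4 and Ptgs2 the NT point is the highest in all 9 macrophage and monocyte clusters.

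Ptger2, which encodes the other cyclic AMP-raising prostaglandin E2 receptor, EP2, was sparse. Its levels were 7.49, 8.62, 10.3 and 6.03 CPM in macrophages of NT, RT1, RT2 and RT3, with NT inside the RT range. In monocytes it stood at 5.69 CPM in NT from 5 UMIs and at 13.8, 10.9 and 14.97 CPM in the RT libraries (mean log2 ratio 1.21 ± 0.24), short of the rule because RT2 was under 2-fold. Without RT2 it was called, whereas the NT monocytes low in heat shock genes held 0 Ptger2 UMIs, so that no direction could be given in those cells. Lymphocytes had 21.9, 17.7, 20.6 and 10.3 CPM, and no pair of neighbours in the order lymphocyte, monocyte, macrophage was apart.

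Ptgs2, the inducible cyclooxygenase, went in opposite directions in tumor and myeloid cells. In tumor cells it stood at 182 CPM in NT (11318 UMIs) and at 238, 278 and 247 CPM in RT, a mean log2 ratio of 0.48 ± 0.12. In macrophages it stood at 361 CPM in NT (916 UMIs) against 125, 221 and 259 CPM (-0.91 ± 0.55). In monocytes, which with neutrophils had the highest levels, it stood at 1102 CPM in NT (968 UMIs) against 668, 538 and 727 CPM (-0.79 ± 0.22). The counting intervals of NT lay outside those of each RT library in all 3 types, yet none of the 3 differences reached 2-fold in every RT library. Among all genes compared, 32.1% stood higher and 30.4% lower in every RT library in tumor cells, so a difference of 1 sign was common. In macrophages these shares were 33.7 and 33.3%, and in monocytes 42.2 and 23.5%. Without RT2 the mean log2 ratios were 0.41 in tumor cells, -1.01 in macrophages and -0.66 in monocytes, and without RT1 the macrophage ratio was -0.59.

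In the macrophages low in heat shock genes, Ptgs2 stood at 350 CPM in NT (203 UMIs) and 153, 251 and 302 CPM in RT. The log2 ratios were -1.20, -0.48 and -0.22 (mean -0.63), so RT1 differed most and RT3 least. Counting intervals were not taken in these cells. In the matching monocytes the mean log2 ratio was -0.70, with 1041 CPM in NT and 719.8, 492 and 737 CPM in RT. Over second-level clusters, Ptgs2 was lower in every RT library in 9 of 9 macrophage and monocyte clusters and by at least 2-fold in 2 of them. The macrophages led by the interferon-induced genes Ifit1bl1, Cmpk2 and Ifit3b (363 cells, only 18 of them in NT) differed most, with 956 CPM in NT and 139, 207 and 199.9 CPM in RT. The Lyve1, Ccl8 and Bmp2 macrophages had 270.2 CPM in NT, then 64.5, 194 and 139 CPM, and the cluster led by Cma1, Mcpt4 and Cd52 had 432 CPM in NT, then 239, 260.1 and 277 CPM. In dendritic cells the order of libraries was mixed, at 249 CPM in NT and 361, 164 and 477 CPM. The 18 NT fibroblasts had 522 CPM of Ptgs2 against 180.2, 466 and 334 CPM in the RT fibroblasts. Neutrophils had 773 CPM in NT from 36 UMIs, then 579.8, 612 and 670.4 CPM in RT, all inside the NT interval of 541 to 1069.6 CPM. Their mean log2 ratio turned from -0.32 to 0.65 with cells of at least 500 genes and at most 10% mitochondrial UMIs.

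Within tumor cells, Ptgs2 differed more between clusters than between NT and RT. It was highest in the cluster led by Lum, Ramp2 and Ccl11 (3417 cells), at 672 CPM in NT and 590, 647 and 684 CPM in RT, and lowest in the cluster led by the mitotic genes Hmmr, Kif20a and Pif1 (393 cells), at 9.08 CPM in NT and 12.5, 13.2 and 28.2 CPM. In the first of these NT lay inside the RT range. Its cells numbered 431 in NT and 943, 1225 and 818 in the RT libraries. Ptgs2 was higher in every RT library in 10 of 13 tumor clusters and lower in every RT library in none. These clusters are called by their leading genes, since 12 of the 13 had fewer than 3 tumor markers above the mean of tumor cells. The one led by Il1b, Srgn and Ctss (1685 cells, of which 288 were in NT and 342, 496 and 559 in RT) had myeloid genes in the lead and a median depth of 0.183 times that of the libraries. Without it, a choice made after seeing the data, Ptgs2 was higher in every RT library in 9 of 12 clusters, and the tumor cell ratio stayed at 0.48. Beside the tumor cell log2 ratio of 0.48, changed shares of the clusters alone gave 0.19 ± 0.13 and changed levels alone gave 0.34 ± 0.07. These recomputations need not add up to the ratio.

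**Figure D3:**
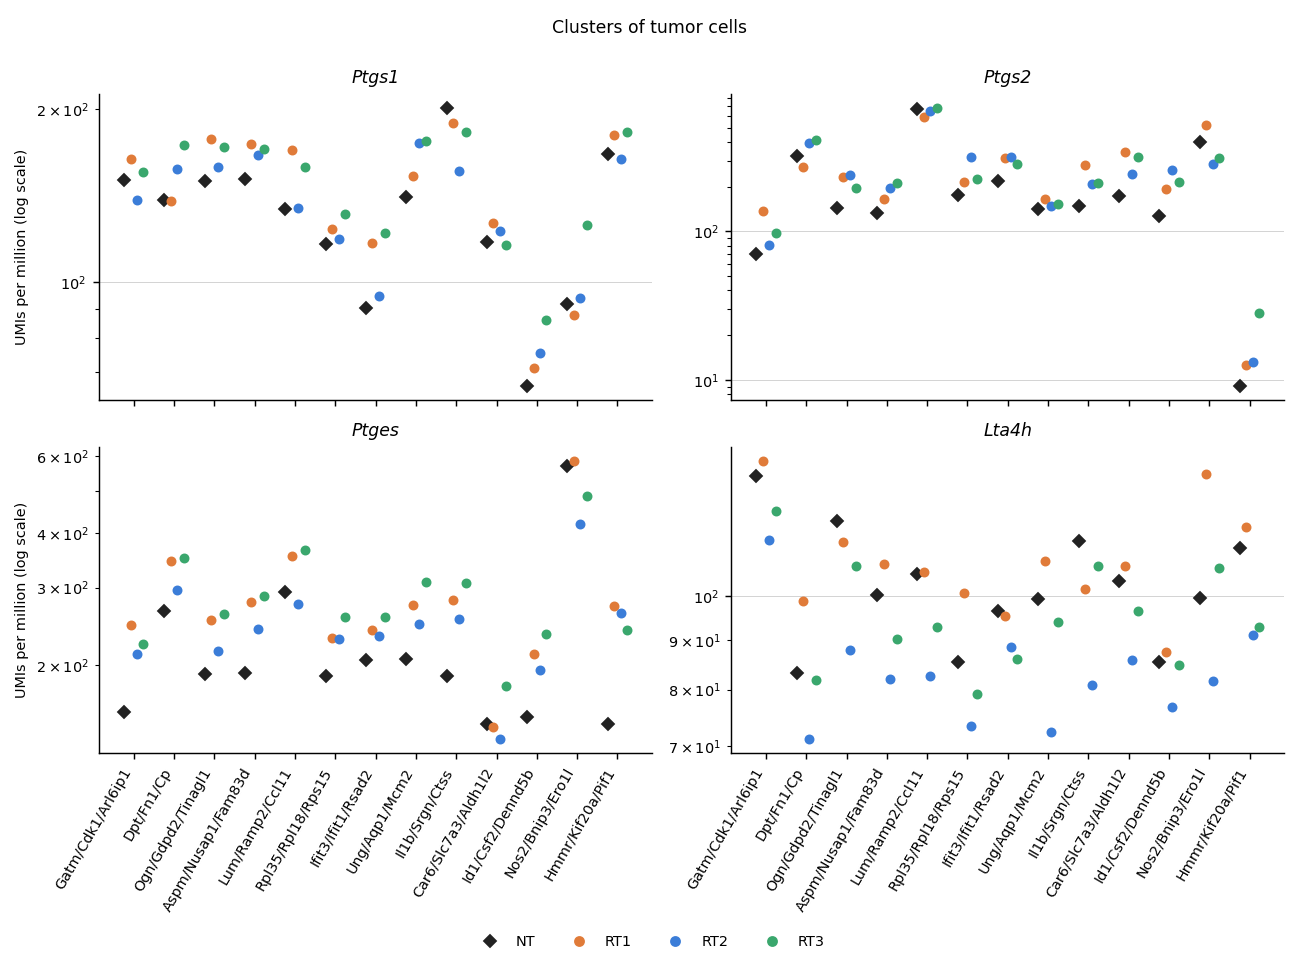
Levels of Ptgs1, Ptgs2, Ptges and Lta4h in the 13 clusters of tumor cells, labelled by their leading genes and with the shallow Il1b, Srgn and Ctss cluster included, in CPM on a log axis; black diamonds are NT and coloured circles are RT1 to RT3. Ptgs2 spans the widest range, in NT from 9.08 CPM in the Hmmr, Kif20a and Pif1 cluster to 672 CPM in the Lum, Ramp2 and Ccl11 cluster.

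Ptges, the inducible synthase that makes prostaglandin E2 from the cyclooxygenase product, stood higher in every RT library in tumor cells, at 201 CPM in NT (12532 UMIs) and 279, 239.9 and 283 CPM in RT. The mean log2 ratio was 0.40 ± 0.13, under 2-fold in each library. It was higher in every RT library in 10 of 13 tumor clusters, or in 9 of 12 without the one led by Il1b, Srgn and Ctss, and nearly all of the difference came with levels inside clusters (0.39) and little with their shares (0.03). Its highest levels were in the cluster led by Nos2 and the hypoxia-induced genes Bnip3 and Ero1l (419 cells), at 568 CPM in NT and 585, 419 and 485 CPM.

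Ptges was called higher in monocytes and fibroblasts, both from few NT UMIs. Monocytes had 7.97 CPM in NT (7 UMIs), then 22.9, 17.2 and 35.3 CPM in RT (1.59 ± 0.52), with 6.55% of the genes compared called higher. Rhox5, a tumor cell marker, stood in monocytes at 4.85% of its tumor cell level in NT and at 4.58, 4.30 and 6.18% in the RT libraries. The NT monocytes low in heat shock genes held 0 Ptges UMIs against 36, 37 and 64 in RT, so no fold is given, and at a floor of 3 UMIs for NT the call was lost. Fibroblasts had 59.1 CPM in NT (6 UMIs), then 143, 191 and 239.5 CPM in RT (1.66 ± 0.37), with 10.4% called higher, and Rhox5 in fibroblasts stood at 12.1% of its tumor level in NT and 18.8, 22.7 and 22.5% in RT. The part of tumor RNA in these values was not tested. Macrophages had 5.91 CPM in NT, then 12.7, 8.12 and 15.1 CPM, higher in each RT library but by under 2-fold in RT2, and the gene was called there without RT2. Rhox5 in macrophages stood at 2.46% of its tumor level in NT and 3.13, 2.57 and 3.83% in RT, and the part of tumor RNA there was not tested either. Neutrophils had 193, 121, 80.3 and 192 CPM in NT and then RT, while Rhox5 reached 40.5 to 65.0% of its tumor cell level in them.

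Ptgs1, the constitutive cyclooxygenase, differed little in tumor cells, at 138 CPM in NT and 157, 141 and 159 CPM in RT (0.14 ± 0.10). Tumor cells were apart from the next type in the order of levels, neutrophils, which stood at 85.8 CPM in NT against 63.7, 54.3 and 95.8 CPM, from 4 to 25 UMIs. Rhox5 stood at 40.5 to 65.0% of its tumor cell level in neutrophils, and the part of tumor RNA in their Ptgs1 was not tested. Dendritic and endothelial cells had too few Ptgs1 UMIs to be ranked. In macrophages it stood at 31.1 CPM in NT against 24.5, 19.2 and 15.3 CPM (-0.69 ± 0.34), and only the RT2 and RT3 intervals lay below that of NT. In the macrophages low in heat shock genes the levels were 44.9 CPM in NT (26 UMIs) and 21.0, 19.4 and 10.9 CPM, at which Ptgs1 was called lower. The call of higher Ptgs1 in fibroblasts rested on 1 UMI in the NT fibroblasts, against 8, 62 and 35 UMIs in the RT libraries, and Rhox5 in fibroblasts was also higher in RT, as given above. The part of tumor RNA in this call was not tested.

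Hpgds, which makes prostaglandin D2, did not separate the groups in macrophages, at 50.8 CPM in NT and 65.5, 41.1 and 48.5 CPM in RT. The mean log2 ratio was 0.00 ± 0.34. Among the macrophage clusters it was highest in the one led by Lyve1, Ccl8 and Bmp2, at 72.0 CPM in NT and 91.7, 57.5 and 70.2 CPM. Monocytes held 1, 7, 8 and 8 Hpgds UMIs and tumor cells 2, 8, 8 and 2, which is too few to compare.

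On the leukotriene branch, Alox5ap and Alox5 stood higher after radiotherapy in macrophages and monocytes, by less than the rule required. For Alox5 in monocytes this rested on few NT UMIs and did not hold in the second-level cluster compared, as given below. Alox5ap, which encodes the protein that presents arachidonic acid to 5-lipoxygenase, was at 923 CPM in NT macrophages (interval 886 to 961) and at 1276, 1155 and 1143 CPM in RT (0.37 ± 0.09). In monocytes it was at 979 CPM in NT (interval 914 to 1046), then 1440.2, 1305 and 1581 CPM (0.55 ± 0.14). NT was below every RT library with no overlap of intervals in either type. In the cells low in heat shock genes these differences shrank to a mean log2 ratio of 0.023 in macrophages, at 1195 CPM in NT and 1305, 1177 and 1165 CPM, and of 0.15 in monocytes, at 1412 CPM in NT and 1563, 1517 and 1614 CPM. Dendritic cells had 813, 887, 751 and 852 CPM in NT and then RT, with NT inside the RT range. The second-level cluster led by Ccr7, Cacnb3 and Ccl22, highest for Ptger4, had only 44.2 to 92.3 CPM of Alox5ap.

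Alox5ap was called higher in neutrophils, at 386 CPM in NT (18 UMIs, interval 229 to 611) and 1005, 1241 and 804 CPM in RT (1.37 ± 0.31), where 8.12% of the genes compared were called higher. This call was kept under 10 of 12 alternative settings and lost when the cells with the highest doublet scores were left out and when each cell was given equal weight. The NT value came from 21 cells, in which the summed neutrophil markers were also lower, as given above, and their part in the result was not tested. The macrophage markers in neutrophils summed to 21.5 CPM in NT and 565, 747 and 229.8 CPM in the RT libraries. In lymphocytes the call rested on 3, 9, 22 and 7 UMIs in NT and then RT, with 2.5% of genes called higher, and it was kept under 6 of 12 alternative settings. Lyz2, a myeloid gene, stood at 28.3 CPM in NT and 174, 159 and 86.1 CPM in RT in all lymphocytes but the 72 described below, and its part in the result was not tested. Tumor cells held 4.13 CPM of Alox5ap in NT and 7.04, 7.46 and 5.56 CPM in RT, which was 0.448 to 0.646% of the macrophage level, while the macrophage marker C1qb was also higher in RT there, at 0.836 CPM in NT and 8.43, 13.4 and 4.28 CPM (0.0447% of its macrophage level in NT and 0.218, 0.270 and 0.116% in RT). The part of macrophage RNA in the tumor cell values of Alox5ap was not tested.

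Alox5, which encodes 5-lipoxygenase, was at 28.4 CPM in NT macrophages (72 UMIs) and at 81.9, 47.8 and 55.4 CPM in RT (1.08 ± 0.40). NT lay below every RT library with no overlap of intervals, and RT2 and RT3 were under 2-fold. In the macrophages low in heat shock genes the levels were 39.7 CPM in NT and 78.9, 42.7 and 55.4 CPM (mean log2 ratio 0.53). Monocytes had 7.97 CPM in NT from 7 UMIs, then 25.8, 14.8 and 10.7 CPM in RT. Only 1 second-level monocyte cluster, led by Areg, Cxcl3 and Serpinb2, had enough Alox5 UMIs to compare. There NT lay inside the RT range, at 18.5 CPM in NT and 26.3, 15.7 and 21.6 CPM in RT. The neutrophil call rested on 1 UMI in NT against 26, 41 and 11 UMIs in RT.

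In lymphocytes Alox5 stood at 32.9, 40.7, 37.3 and 77.7 CPM in NT and then RT, and 57.4% of these UMIs came from 1 small cluster of 72 cells led by Gzmg, Tmsb15a and Ctsg, singled out after its values were seen. It was named lymphocyte and given no finer cell type. Of the genes of natural killer and other cytotoxic cells looked at, Gzma (8275 CPM in NT and 7890.5, 9656 and 4029 CPM in RT) and Ncr1 (261 to 469.7 CPM) stood higher than in the other lymphocytes in all 4 libraries, Klrd1 stood higher in the 3 RT libraries only, and Nkg7 stood higher in NT only. The T cell gene Cd3e had 0 UMIs. Of the genes of basophils and mast cells, Mcpt8 stood at 82.9 CPM in NT and 101, 313 and 189.9 CPM in RT, Ms4a2 had 0 UMIs and Cpa3 had 1. Its Alox5 levels were 262, 173, 125 and 231 CPM in NT and then RT, against 3.53, 22.2, 24.95 and 35.6 CPM in the other lymphocytes. Alox5ap held 0, 0, 20.9 and 6.78 CPM in the same cluster, so the partner gene did not follow. A further cluster of 13 cells was named from markers of basophils or mast cells, although Cpa3, Cma1, Mcpt4, Tpsb2, Fcer1a and Ms4a2 were each found in only 6 or 7 of its cells, and 5 of the 13 held 7 Alox5 UMIs in all.

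Ltc4s, which makes leukotriene C4, the first cysteinyl leukotriene, was low and varied between RT libraries. Macrophages had 10.2 CPM in NT (26 UMIs), then 12.7, 21.6 and 6.26 CPM in RT (0.23 ± 0.90), NT lay inside the RT range, and in the macrophages low in heat shock genes the mean was -0.66. The NT fibroblasts held 0 UMIs, which allows up to 29.6 CPM at a floor of 3 UMIs, and the RT fibroblasts had 45.0, 32.1 and 19.8 CPM, so no difference was detectable at this depth. Fibroblasts and macrophages were not apart in the order of levels.

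Lta4h, which makes leukotriene B4, was measured in every cell type compared. It was highest in dendritic cells (238, 294, 214 and 281 CPM in NT and then RT) and lymphocytes (265, 271, 209.8 and 192 CPM), which were not apart from each other. Tumor cells had 106, 115, 88.7 and 97.2 CPM, with NT inside the RT range (-0.09 ± 0.19). Macrophages were apart as the lowest type, at 57.2, 55.8, 47.9 and 53.1 CPM. Endothelial cells had 147 CPM in NT (26 UMIs) against 96.0, 91.4 and 81.3 CPM in RT, lower in each but with overlapping intervals. No cell type gave a call for Lta4h.

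Counted together, 51 pairs of a gene and a cell type had enough UMIs to compare, and 8 were called (15.7%), 6 of them higher and 2 lower in RT. Over all genes, 4050 of 58364 pairs were called (6.94%), 5.21% higher and 1.73% lower. At 1.5-fold, 14 pairs of the 10 genes were called, beside 16.5% of the pairs of all genes. Of the 6 higher calls, 5 rested on 7 or fewer UMIs in NT, the exception being Alox5ap in neutrophils with 18. With the top 8% of each library by doublet score left out, 4 calls remained, Ptger4 and Ptges in monocytes, Ptger4 in macrophages and Ptges in fibroblasts. By cell type, no gene of 6 was called in tumor cells (background 4.17%), 1 of 10 in macrophages (7.23%), 2 of 8 in monocytes (7.49%) and none of 4 in dendritic cells (5.56%). In neutrophils 2 of 6 were called (13.7%), in lymphocytes 1 of 8 (3.3%), in fibroblasts 2 of 6 (14.4%) and in endothelial cells none of 3 (6.36%). The median log2 ratio of the compared genes was 0.44 in tumor cells against -0.01 over all genes, 0.06 in macrophages against -0.01, and 0.45 in monocytes against 0.13. It was 0.08 in dendritic cells against 0.00, -0.31 in neutrophils against -0.12, 0.29 in lymphocytes against -0.11, 0.73 in fibroblasts against 0.02 and 0.52 in endothelial cells against -0.03. The endothelial median is over only the 2 genes with a ratio in every RT library. These went opposite ways, Ptges at 1.75 and Lta4h at -0.71. The tumor cell median includes Ptger4 (0.65) and Alox5ap (0.68), which were nearly absent from those cells. The other genes in it were Ptgs2 (0.48), Ptges (0.40), Ptgs1 (0.14) and Lta4h (-0.09). Relative to the median of all genes, the monocyte ratios above are thus 0.13 lower, and those of neutrophils and lymphocytes 0.12 and 0.11 higher.

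**Figure D4:**
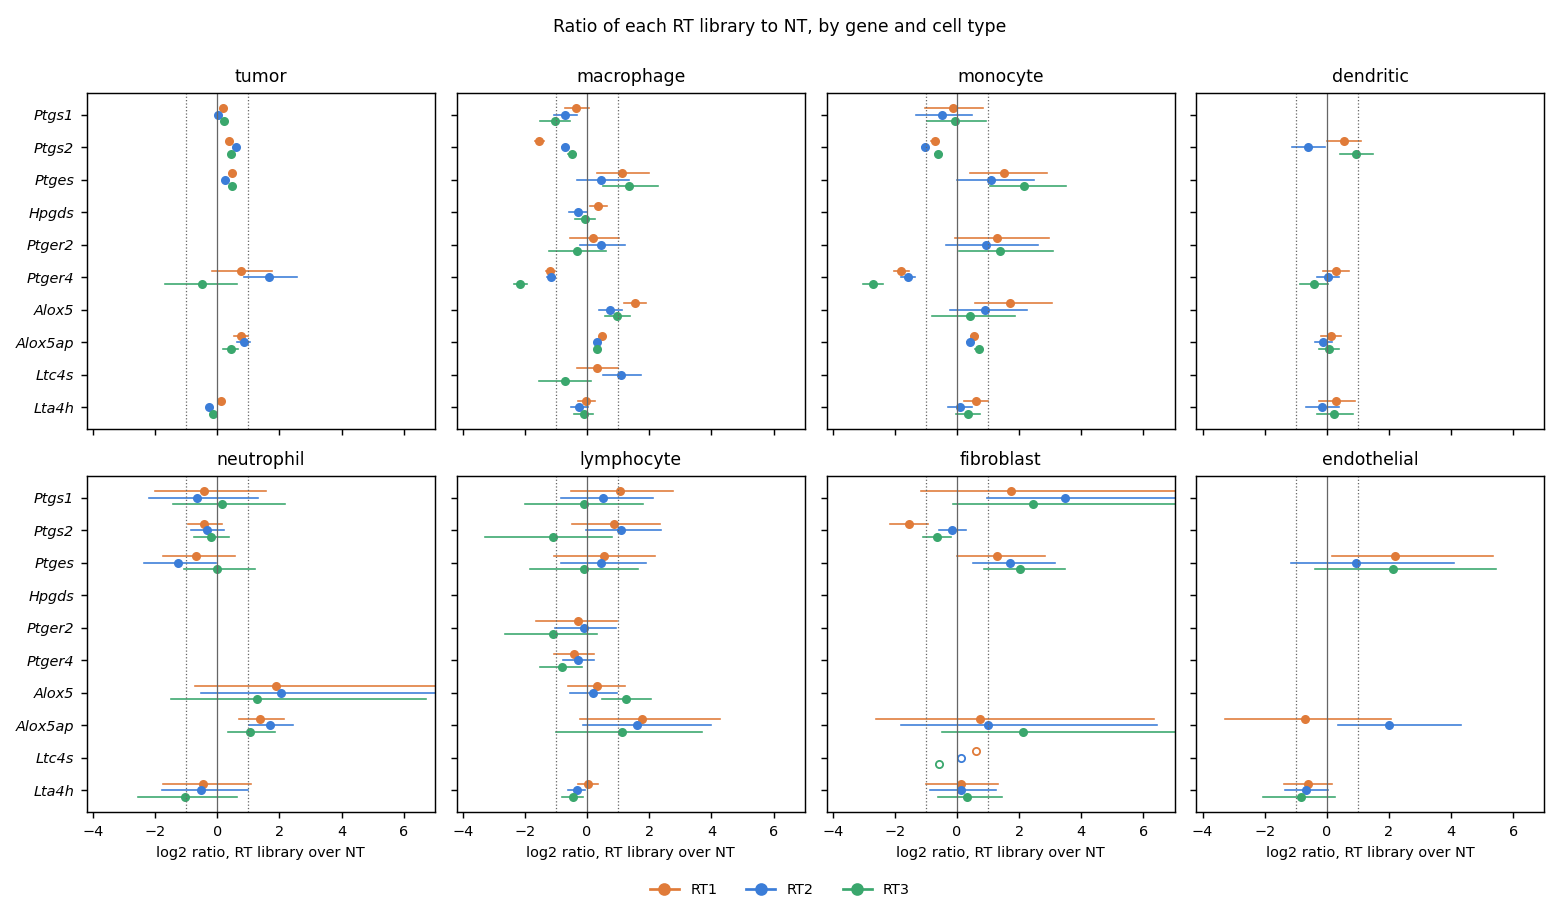
Log2 ratio of each RT library over NT for the 10 genes in 8 cell types, with 95% counting intervals, some of which run past the axis; dotted lines mark 2-fold and open points are bounds where NT had 0 UMIs. Ptger4 lies beyond the lower dotted line in macrophages and monocytes in all 3 RT libraries, and Ptgs2 lies above 0 in tumor cells and below 0 in those types.

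Summed over all cells of a library, as a bulk measurement would see it, Ptger4, Alox5 and Alox5ap gave other ratios than within macrophages and monocytes, and myeloid cells made up more of the RT libraries. Macrophages held 3.66% of UMIs in NT and 10.9, 11.9 and 5.07% in RT, and monocytes held 1.27% against 3.998, 4.72 and 3.06%. Ptger4 over all cells was 16.8 CPM in NT and 20.7, 25.5 and 6.76 CPM in the RT libraries, a mean log2 ratio of -0.13, which was 0.45 without RT3. With NT levels in each cell type and RT shares it would have been 1.24, and with RT levels and NT shares -1.19, so the larger share of myeloid cells and their lower level pulled in opposite directions. Alox5ap went from 56.3 CPM in NT to 232, 234 and 128 CPM, and Alox5 from 1.63 CPM to 12.1, 8.41 and 4.51 CPM. Both were called higher over all cells, as were 5.84% of genes (6.09% in either direction). For Alox5ap the mean was 1.76, beside 1.25 with shares alone changed and 0.52 with levels alone changed. For Alox5 the mean was 2.24, beside 1.09 and 1.15. These recomputations need not add up to the mean. For Hpgds, shares alone gave 1.22 beside a mean of 1.32. Ptgs2 over all cells went from 199 CPM to 238, 280.4 and 264 CPM (0.38). Shares alone gave 0.25 and levels alone 0.35, which do not add up to that mean.

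**Figure D5:**
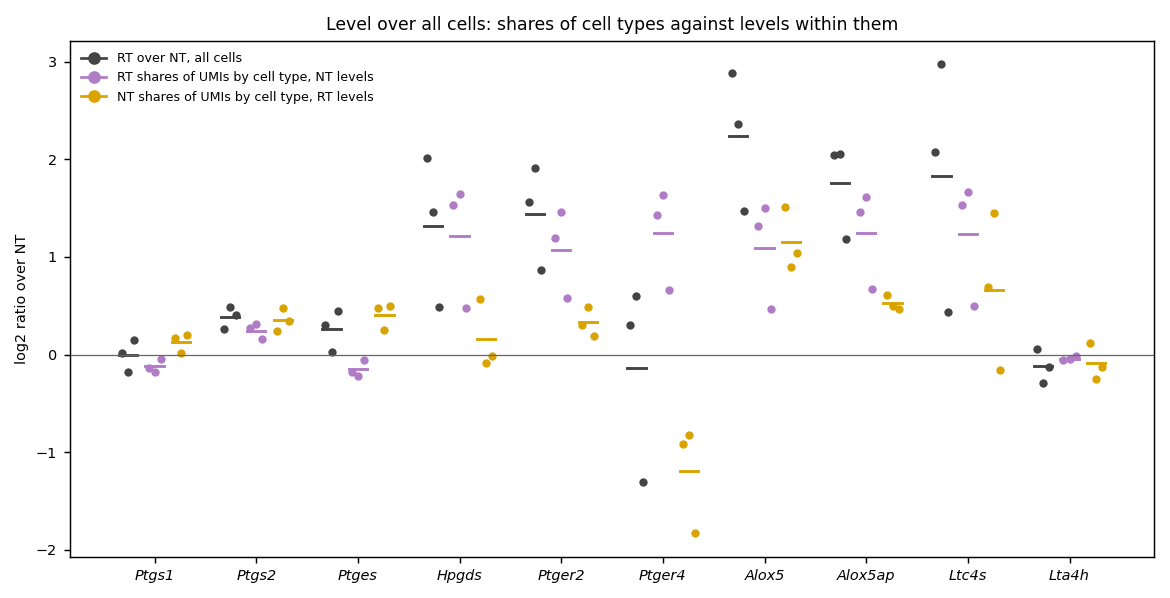
Log2 ratio of RT over NT over all cells for each gene (black), with NT levels per cell type and RT shares of UMIs (purple) and with RT levels and NT shares (gold); points are the 3 RT libraries and bars their means. The purple and gold bars of Ptger4 point in opposite directions (1.24 and -1.19).

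The other genes of the pathway were taken from a list of 36, of which 34 were in all 4 tables. Of their 84 pairs with a cell type, 7 were called, 4 higher and 3 lower in RT, and this share of 8.33% was near the 6.94% of all pairs, so the genes named next are listed as values only. Cyp4f18, which inactivates leukotriene B4, was lower in macrophages, at 8.28 CPM in NT (21 UMIs) and 1.89, 3.09 and 3.01 CPM in RT. Cbr1, a carbonyl reductase that converts prostaglandin E2, was lower in monocytes, at 21.6 CPM in NT (19 UMIs) and 9.98, 9.17 and 9.21 CPM. Ptges3, a co-chaperone also described as a prostaglandin E synthase, was called lower in the few neutrophils, at 537 CPM in NT and 143, 169 and 163 CPM, and stood lower in every RT library in 7 of the 8 cell types, endothelial cells being the exception. In tumor cells Ptges3 was at 377 CPM in NT and 229.8, 287 and 269 CPM. Among the higher calls, Slco2a1, the prostaglandin transporter, was at 67.6 CPM in NT endothelial cells (12 UMIs) and 138, 148 and 138 CPM in RT. Ggt5, which trims leukotriene C4 to leukotriene D4, was at 0.225 CPM in NT tumor cells and 0.901, 3.30 and 1.10 CPM. Its mean log2 CPM was 4.91 in fibroblasts against -0.11 in tumor cells. Fibroblasts held 0.147% of UMIs in NT and 0.314, 0.516 and 0.771% in RT. The part of fibroblast RNA in the tumor cell values was not tested. Ptgis, prostacyclin synthase, in fibroblasts and Mgst2, a microsomal enzyme that can form leukotriene C4, in endothelial cells were called from 2 and 1 UMIs in NT. Rhox5 in endothelial cells stood at 4.27% of its tumor cell level in NT and at 16.3, 7.19 and 24.1% in RT, and the part of tumor RNA in the Mgst2 values was not tested.

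Genes of the list that were abundant but not called give the setting of these values. In tumor cells Akr1b3, which can form prostaglandin F2α, stood at 336 CPM in NT and 415, 303 and 492 CPM in RT, and Mgst2 at 163 CPM in NT and 240.2, 243 and 298 CPM. Pla2g5, a secreted phospholipase, stood at 50.1 CPM in NT and 46.0, 37.6 and 39.2 CPM in the same cells. Pla2g4a, the phospholipase that releases arachidonic acid, was less abundant and was chosen after its values were seen. It had a mean log2 ratio of 0.41 ± 0.02 in tumor cells. It was higher there in all 3 RT libraries, as were 32.1% of the genes compared. Its mean log2 CPM was 5.27 in tumor cells, not apart from 5.33 in monocytes and 5.25 in macrophages. Cysltr1, the main cysteinyl leukotriene receptor, stood at 58.3 CPM in NT macrophages and 62.4, 53.6 and 42.2 CPM in those of RT, not apart from monocytes.

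As a description of where the genes are used, log2 levels were set beside those of 6270 other genes over 32 points (8 cell types in 4 libraries, which share libraries and depth). Closest to Ptger4 were Myo1g (r = 0.90), Tnip3 (0.90) and Slamf7 (0.89), and closest to Ptges were Twist1 (0.94), Rhox5 (0.94) and Twist2 (0.93). Alox5ap lay nearest to Nfam1 (0.98), Pira2 (0.98) and Il1rn (0.97), and Alox5 to Rac2 (0.93), Tyrobp (0.91) and Cd53 (0.91). Ptgs2 lay nearest to Emilin2 (0.88), Il6ra (0.86) and Mmp19 (0.85), Ptgs1 to Igfbp4 (0.89), Cp (0.88) and Hmga2 (0.88), and Hpgds to Ms4a7 (0.85), Lamtor1 (0.84) and Cbr2 (0.84). Likeness was lower for Ltc4s with Cfb (0.79), and the nearest gene to Ptger2 was Cd37 (0.87), and to Lta4h Unc119b (0.85).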

How the data were processed

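Raw UMI counts per gene and cell, as the authors deposited them, were read for 4 libraries; per the submitters' processing notes, reads were processed with tools that include STAR 2.5.1b, Subread 1.6.4 featureCounts and Cell Ranger on GRCm39 (mm39). The RT2 table listed fewer genes than the others and no barcode above 11.95% mitochondrial UMIs, and no source used here says why. The genes and lists used here were chosen with earlier results of these data known. Filters on cells were a minimum of 200 genes and a maximum of 20% mitochondrial UMIs, and 2000 variable genes without the pathway genes gave 30 principal components, which were aligned between libraries by a Harmony procedure (theta 2) and clustered with Leiden at resolution 0.8 over 20 neighbours (scanpy 1.11.5, leidenalg 0.10.2, Python 3.11.15). Clusters were named by fixed markers with a rule settled after clusterings had been seen, and 1084, 1923, 1806 and 1845 cells of NT, RT1, RT2 and RT3 with markers of 2 classes, few markers or little RNA stayed unnamed. A cluster of 13 cells was named from markers of basophils or mast cells. No doublets were removed, since the tables do not mark them, and scrublet called 1.18, 3.03, 3.45 and 2.54% of cells.

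Counts were summed per library and cell type and divided by all UMIs of that type to give CPM. A count of 0 was set to 3 UMIs for a bound. Intervals were exact Poisson, Clopper-Pearson for shares and conditional binomial for ratios. NT and RT were compared by the 2-fold rule given above, with no test, after the calling was checked on simulated counts. Named genes were all 10 genes, the other pathway genes called in any cell type or most abundant in their set, and the 3 genes most like each. Pla2g4a was named in addition, after its values were seen. Alternatives were another fold (1.5), a lower count minimum (3), stricter cells, doublet scores, resolutions of 0.4 and 1.2, pathway genes kept in the clustering, TMM scaling (edgeR 4.0.16), levels averaged over cells so that each cell weighs the same, each RT library left out and, added after seeing the data, myeloid cells low in heat shock genes and tumor cells without the cluster led by Il1b, Srgn and Ctss. Promoters came from RefSeq on GRCm38.p6, another build than that of the counts, and 9 of the 10 genes matched one.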

Additional observations from a re-analysis of the deposited data

Results flagged for a closer look

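Ptgs2 moved in opposite directions in tumor cells and myeloid cells of the same libraries, higher than NT in all 3 RT libraries in tumor cells and lower in all 3 in macrophages and in monocytes. The mean log2 ratio of tumor cells exceeded that of macrophages by 1.39 and that of monocytes by 1.27. The difference was not tested, since all 3 RT libraries were set against 1 NT library.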

How the results depend on the processing

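No paired analysis was possible because NT was 1 library with no replicate number and no test was made. None of the 8 called ratios changed direction. Of all 60 mean log2 ratios, 19 changed sign under at least 1 alternative, among them Ltc4s in macrophages (0.23, and -0.66 in cells low in heat shock genes), Ptgs2 in dendritic cells (0.29, and -0.60 at resolution 0.4) and Ptger4 over all cells (-0.13, and 0.45 without RT3). Averaging levels over cells in place of summing UMIs turned the sign of 10 of these ratios, among them Lta4h (-0.68 to 0.83) and Ptgs1 (-0.31 to 0.65) in neutrophils, Ptgs2 in fibroblasts (-0.78 to 0.21) and Lta4h in macrophages (-0.13 to 0.18). Ptger2 in monocytes low in heat shock genes had 0 UMIs in NT, so its sign there rests on the floor of 3 UMIs. The 8 calls of the 10 genes became 4 without the cells with the highest 8% of doublet scores (Ptger4 in macrophages and monocytes, Ptges in monocytes and fibroblasts) and 14 at 1.5-fold, and the 7 calls of other pathway genes became 14 at 1.5-fold. With only macrophages and monocytes low in heat shock genes, an alternative chosen after seeing the data, the mean log2 ratio was 0.53 for Alox5 and 0.023 for Alox5ap in macrophages, and -1.39 for Ptger4 and 0.15 for Alox5ap in monocytes; the cause was not tested. At resolution 1.2, which redraws the types, Ptgs2 in monocytes was -1.03 and Ptger4 in dendritic cells had a mean log2 CPM of 8.12 (9.77 at resolution 0.4, 8.87 at 0.8). With each RT library left out in turn, the 10 genes had 8 to 9 calls and the other pathway genes 7 to 8, and the mean log2 ratio of Ptger4 ran from -1.67 to -1.18 in macrophages and from -2.24 to -1.69 in monocytes, and that of Ptgs2 in macrophages from -1.12 to -0.59. Of the 13 alternatives that touch myeloid cells, the call was kept under 13 for Ptger4 in macrophages, 12 for Ptger4 in monocytes and 9 for Ptges in monocytes, and of the 12 that touch fibroblasts under 12 for Ptges. Without the tumor cluster led by Il1b, Srgn and Ctss, also chosen after seeing the data, the 10 genes kept 8 calls in all. Depth limited NT in neutrophils (46594 UMIs) and fibroblasts (101506 UMIs), where 3 UMIs in fibroblasts amount to 29.6 CPM.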
